A study of Rattus norvegicus with 26 samples.

Results

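The genes described here are 40 rat genes of DNA replication and cell division, chosen by symbol from 2 stages of the cell cycle, of which 38 could be measured among the 14217 genes on the array. Each gene was represented by the probe set (a group of short probes for one transcript) that had the highest mean over the 26 arrays of the study among probe sets annotated to that gene alone. Tpx2 had no probe set, and the 2 probe sets of Rrm2 were shared with Rrm2l1, so neither gene was measured. The measured genes were 12 genes of replication and the G1/S transition and 26 genes of mitosis.

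RNA came from primary cultures of neurons, astrocytes, oligodendrocytes and microglia, each grown from the cerebral cortex of rat pups on postnatal day 1 with 4 biological replicates, and was hybridised to Affymetrix expression arrays. The labels give no treatment, strain or genotype and no pooling of animals, and the time in culture is not given in the sources used here. A further 10 arrays carried mixtures of the same RNA in 2 replicates of 5 compositions. In the series NA1, NA2 and NA3 the neuronal fraction of the RNA was 0.25, 0.5 and 0.75 and astrocytes supplied the remainder. The mixture NAO was 0.5 neuronal with 0.25 each from astrocytes and oligodendrocytes, and NAOM was 0.5 neuronal, 0.2 from each of those glia and 0.1 from microglia. Replicate 1 of each mixture was made from neuron 1, astrocyte 1, oligodendrocyte 2 and microglia 2, and replicate 2 from neuron 2, astrocyte 4, oligodendrocyte 4 and microglia 3. Microglia 4 carries the description of a mixture in its labels, although its cell type is given as a microglial culture, and it was kept as a culture.

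A cell that divides copies its DNA once in S phase and separates the copies in M phase. The replication genes serve the first step: the MCM helicase opens the double strand, the clamp Pcna holds the polymerases on it, ribonucleotide reductase and the thymidine enzymes supply nucleotides, and cyclin E starts S phase with its kinase. The mitosis genes serve the second: Cdk1 with cyclins A and B drives entry, Plk1 and the Aurora kinases build the spindle, the checkpoint kinases wait for attached chromosomes, and kinesins with their partners pull the chromosomes apart and split the cell. Transcription of both sets is repressed in resting cells through pocket proteins with E2F factors and the MuvB complex. Neurons leave the cell cycle when they form, whereas astrocytes, microglia and the precursors of oligodendrocytes can divide in culture.

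Every value below is a log2 expression level as deposited, so a difference of 1 is a 2-fold change. Levels are compared between arrays for 1 probe set at a time, since probe sets differ in brightness. The median level of an array lay between 5.25 and 5.31 in the 16 cultures. Pearson's r over all probe sets between replicate arrays, where probe sets are not independent, was 0.974 to 0.995 in neurons, 0.942 to 0.995 in astrocytes, 0.967 to 0.985 in oligodendrocytes and 0.977 to 0.989 in microglia. The 10 neuronal markers had a mean level of 10.65 ± 0.20 (SD, n = 4) in neurons, 6.54 in oligodendrocyte cultures, 5.73 in microglia and 4.92 in astrocytes. Cultures held markers of other cell types. The mean of the 10 microglial markers was 9.05 in oligodendrocyte cultures (range 8.33 to 9.44, 9 of 10 above the array median) against 10.82 in microglia and 4.67 in neurons. The mean of 9 oligodendrocyte markers was 8.06 in microglial cultures (range 7.03 to 8.72) against 10.48 in oligodendrocyte cultures. The mean of 9 astrocyte markers in the neuronal cultures was 7.42, 8.26, 9.62 and 9.35 in replicates 1 to 4. The mean of 7 fibroblast and meningeal markers was 8.99 in astrocyte 4 and 6.61 to 6.69 in the other astrocyte arrays. The 5 measured endothelial markers had means of 3.62 to 4.02 in all cultures. Those of 5 pericyte and smooth muscle markers were 8.04 in astrocytes, 5.98 in neurons, 5.77 in oligodendrocyte cultures and 5.31 in microglia. The mean of 4 oligodendrocyte precursor markers was 9.15 in oligodendrocyte cultures, 7.58 in microglia, 5.67 in astrocytes and 5.61 in neurons. That of 6 neural progenitor markers was 9.27 in astrocytes, 7.55 in oligodendrocyte cultures, 6.78 in neurons and 6.68 in microglia. The part of precursors and progenitors in the levels below was not tested.

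The promoters of these genes hold short sequence words known from cell cycle control, and 6 of them are printed to show how the words lie in the genes with the widest ranges of culture means in each class. They are the 250 bases before the annotated start of the replication genes Mcm2, Mcm6 and Mcm7 and the mitosis genes Cdk1, Nusap1 and Mki67, from RefSeq on the GRCr8 build, 5′ to 3′ on the strand of the gene, at chr4:122918095-122918344 on the minus strand, chr13:42404353-42404602 (minus), chr12:22163179-22163428 (minus), chr20:19265043-19265292 (plus), chr3:127057045-127057294 (plus) and chr1:199952594-199952843 (minus). Capitals mark 3 kinds of word on either strand. The CHR element was searched as TTTGAA and in its other form as TTCGAA. The CCAAT box was searched as CCAAT alone. The E2F type was any word of TTCCCGC and, as the second, TTGGCGC and, as the third, TTCGCGC and, as the last, TTGCCGC. Words can overlap, since an E2F word read on the other strand can end in the first letters of CCAAT, and runs of overlapping words are capitalised as 1 stretch.
Mcm2: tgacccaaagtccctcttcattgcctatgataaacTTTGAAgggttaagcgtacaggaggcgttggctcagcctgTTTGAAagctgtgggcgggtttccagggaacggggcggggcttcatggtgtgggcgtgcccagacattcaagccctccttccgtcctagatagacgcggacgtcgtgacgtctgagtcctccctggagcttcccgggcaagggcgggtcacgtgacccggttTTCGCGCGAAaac
Mcm6: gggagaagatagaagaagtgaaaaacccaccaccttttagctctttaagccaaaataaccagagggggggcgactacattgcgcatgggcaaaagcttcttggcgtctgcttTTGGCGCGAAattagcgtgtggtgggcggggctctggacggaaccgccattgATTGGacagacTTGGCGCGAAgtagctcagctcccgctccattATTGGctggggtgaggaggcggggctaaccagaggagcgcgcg
Mcm7: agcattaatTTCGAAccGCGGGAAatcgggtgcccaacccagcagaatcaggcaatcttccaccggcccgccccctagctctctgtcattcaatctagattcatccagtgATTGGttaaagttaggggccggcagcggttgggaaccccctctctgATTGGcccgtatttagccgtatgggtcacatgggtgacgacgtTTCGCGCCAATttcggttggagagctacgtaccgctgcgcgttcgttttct
Cdk1: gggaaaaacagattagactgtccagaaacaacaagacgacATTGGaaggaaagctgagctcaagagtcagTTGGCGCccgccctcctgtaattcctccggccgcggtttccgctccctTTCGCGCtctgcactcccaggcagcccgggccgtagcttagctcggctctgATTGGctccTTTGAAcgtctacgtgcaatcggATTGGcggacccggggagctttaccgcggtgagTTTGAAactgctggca
Nusap1: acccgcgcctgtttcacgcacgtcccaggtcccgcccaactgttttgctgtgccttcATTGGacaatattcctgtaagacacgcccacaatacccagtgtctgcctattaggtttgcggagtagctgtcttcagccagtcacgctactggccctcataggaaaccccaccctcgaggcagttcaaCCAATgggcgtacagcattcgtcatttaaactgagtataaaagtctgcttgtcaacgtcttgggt
Mki67: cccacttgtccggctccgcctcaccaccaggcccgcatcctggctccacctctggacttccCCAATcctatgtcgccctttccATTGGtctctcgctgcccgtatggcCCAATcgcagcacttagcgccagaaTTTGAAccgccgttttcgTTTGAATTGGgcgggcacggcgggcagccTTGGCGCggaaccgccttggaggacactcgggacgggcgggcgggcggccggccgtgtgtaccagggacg

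The 6 sequences do not separate the classes by these words. E2F words stood in Mcm2, Mcm6 and Mcm7 and also in Cdk1 and Mki67, CHR elements in Mcm2 and Mcm7 as well as Cdk1 and Mki67, and CCAAT boxes in all but Mcm2. The CHR element of Nusap1 lay after its start, outside the printed bases. Of the 40 genes, 32 had a promoter in the RefSeq table, and words were counted in 300 bases, 250 before and 50 after the start. An E2F word stood in 7 of 10 replication promoters (70%) and in 5 of 22 mitosis promoters (22.7%), against 11.7% of 21851 protein-coding promoters. The CHR element stood in 3 replication promoters (30%) and 15 mitosis promoters (68.2%), against 18.5% of protein-coding promoters. CCAAT stood in 60% and 72.7% of the same promoters, against 38% of protein-coding ones. CHR and CCAAT occurred together in 13 mitosis promoters (59.1%) and 2 replication promoters, against 7.6%. The windows of Ccne1, Aurka, Bub1, Kif2c, Melk and Tk1 held none of these words. A word is a match of letters and was not tested for binding of any factor.

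Neuronal cultures had low levels of nearly the whole set. Of the 38 genes, 36 were lower in neurons than in each of the 3 glial cultures, among them all 26 mitosis genes and 10 of 12 replication genes. In each of these 36 genes every neuronal array lay below all 12 glial arrays, with gaps from 0.44 (Tk1) to 4.12 (Cdk1) between the highest neuronal and the lowest glial array. How many of all probe sets were separated in this way was not counted. The exceptions were Ccne1, which was higher in neurons than in astrocytes, and Tyms, which was called in no comparison. Fewer dividing cells in a culture and less of these RNAs per cell cannot be told apart in bulk RNA.

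A gene was called when limma's Benjamini-Hochberg adjusted p over 31042 probe sets was under 0.05 and the log2 difference was at least 1. Between neurons and astrocytes 36 genes were lower and 1 higher, where 24.0% of all probe sets were called, 12.0% of all lower and 12.0% higher. Against oligodendrocytes 36 were lower and 0 higher (21.6% of all probe sets called, 10.6% lower and 11.0% higher). Against microglia 36 were lower and 0 higher (25.7% called, 11.6% lower and 14.1% higher). The median difference over the 38 genes was -2.62 from astrocytes, -2.79 from oligodendrocytes and -2.89 from microglia, and over all probe sets it was -0.03, -0.02 and -0.10. The neuronal mean of 28 of the 38 genes lay below the median level of every array, and the share of all probe sets that did so was not counted. At such levels background signal can narrow a fold. Whether the folds given for neurons are compressed in this way was not tested. The counts were 37, 36 and 36 also when neurons 1 and 2 alone or neurons 3 and 4 alone, with the higher astrocyte markers, stood for the neuronal cultures.

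**Figure D1:**
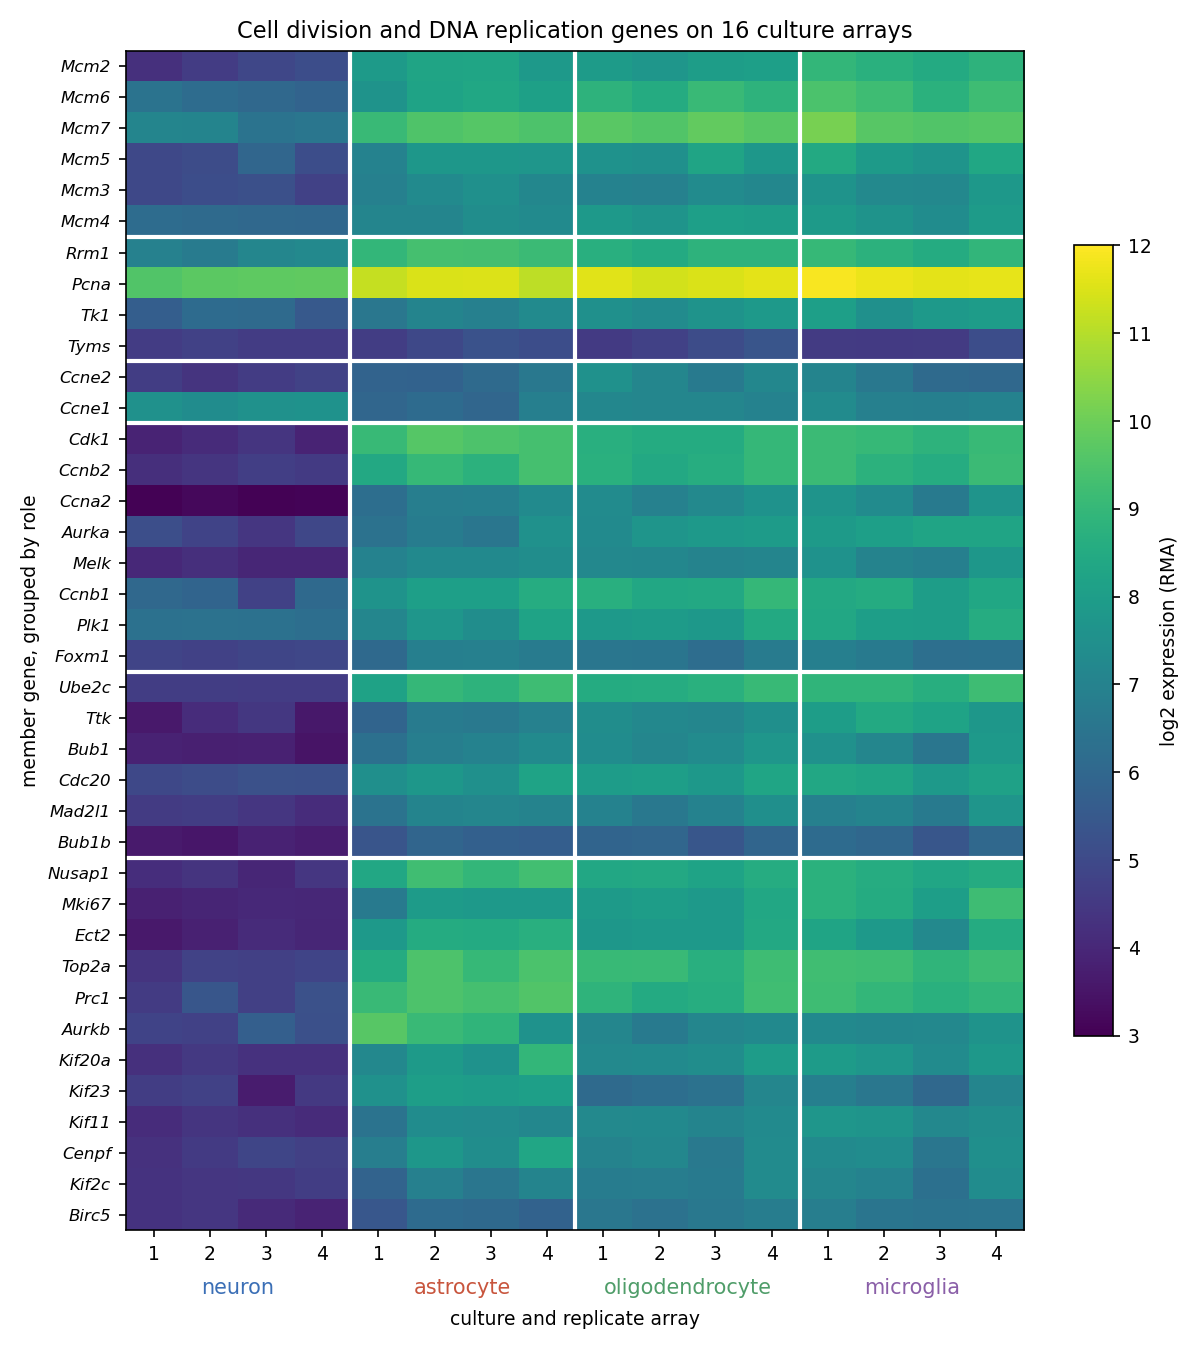
Log2 expression (colour) of the 38 measured genes (rows, grouped by role from the MCM helicase at the top to spindle and cytokinesis genes at the bottom) on the 4 arrays of each culture (columns). The 4 neuronal columns are dark in most rows, with brighter rows such as Ccne1, Pcna, Rrm1, Mcm7 and the mitosis gene Plk1. In the glial columns Aurkb and Kif23 are brighter in astrocytes.

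Among the 6 subunits of the MCM helicase, all were lower in neurons than in each glial culture. Mcm2 showed the widest range of culture means, with 4.24, 4.60, 4.92 and 5.12 on the neuronal arrays, 7.89, 8.27, 8.29 and 7.82 in astrocytes, 7.95, 7.74, 7.997 and 8.09 in oligodendrocytes and 8.96, 8.71, 8.495 and 8.82 in microglia. Its microglial arrays were the highest and stood clear of all others, and neurons were lower than microglia by a log2 difference of -4.03 ± 0.18 (SE, n = 4 against 4), a 16.3-fold difference (limma adjusted p = 5.44e-11). Mcm4 had the narrowest range, with 6.18, 6.11, 6.06 and 6.01 in neurons, 7.10, 7.11, 7.42 and 7.31 in astrocytes, 7.87, 7.64, 8.09 and 8.01 in oligodendrocytes and 7.91, 7.61, 7.37 and 7.93 in microglia. Neurons were uniform and below all glia, and they differed from astrocytes by -1.15 ± 0.13 (limma adjusted p = 3.16e-06). Mcm3, Mcm5, Mcm6 and Mcm7 lay between these 2 in their ranges of culture means, from 2.46 (Mcm3) to 3.01 (Mcm6).

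Of the 4 measured genes of DNA synthesis and nucleotide supply, 3 were lower in neurons than in each glial culture and Tyms was not called. Rrm1, the large subunit of ribonucleotide reductase, measured 6.94, 6.75, 7.15 and 7.23 in neurons, 8.97, 9.36, 9.33 and 9.15 in astrocytes, 8.69, 8.49, 8.81 and 8.80 in oligodendrocytes and 9.04, 8.79, 8.53 and 8.93 in microglia. Neurons were the low group and astrocytes the high one, with a difference of -2.18 ± 0.14 between them (4.54-fold, limma adjusted p = 3.67e-09). Pcna, the sliding clamp, also serves DNA repair, and its 4 neuronal arrays read 9.56 to 9.79 against 11.1 to 11.9 on the glial arrays. The groups did not overlap, and the largest difference, from microglia, was -2.02 ± 0.11 (4.06-fold, limma adjusted p = 5.38e-10). Tk1, the cytosolic thymidine kinase, had the smallest called decrease of the set, -1.10 ± 0.18 from astrocytes (limma adjusted p = 0.000114), with 5.53 to 6.14 in neurons and 6.58 to 7.29 in astrocytes. Without neuron 4 or without astrocyte 4 its difference was -0.986 or -0.9877 and fell under the minimum of 1.

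Tyms, thymidylate synthase, gave 4.60, 4.75, 4.60 and 4.62 in neurons, 4.63, 4.97, 5.27 and 5.13 in astrocytes, 4.54, 4.75, 5.08 and 5.37 in oligodendrocytes and 4.56, 4.52, 4.56 and 5.12 in microglia. Its culture means all lay below the median of every array, the groups overlapped, and its probe set carried no difference that could be called, the largest being -0.36 ± 0.18 between neurons and astrocytes (limma adjusted p = 0.14). At this level the array does not show whether Tyms differed.

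The E-type cyclins, which activate Cdk2 at the start of S phase, went opposite ways in neurons. Ccne2 read 4.64, 4.35, 4.59 and 4.77 in neurons, 5.87, 5.84, 6.12 and 6.59 in astrocytes, 7.54, 7.12, 6.71 and 7.16 in oligodendrocytes and 7.05, 6.59, 6.12 and 6.04 in microglia. All neuronal arrays were lowest, and the difference from oligodendrocytes was -2.55 ± 0.23 (5.84-fold, limma adjusted p = 2.26e-07). Ccne1 read 7.56, 7.39, 7.54 and 7.59 in neurons, 5.98, 6.16, 5.96 and 6.88 in astrocytes, 7.18, 7.11, 7.14 and 6.98 in oligodendrocytes and 7.33, 6.93, 6.90 and 6.99 in microglia. Here every neuronal array lay above all 12 glial arrays, though the gap to the nearest of them, microglia 1, was small. Ccne1 was 2.42-fold higher in neurons than in astrocytes (1.28 ± 0.17, limma adjusted p = 1.12e-05), whereas the differences from microglia (0.48 ± 0.17, adjusted p = 0.0252) and oligodendrocytes (0.42 ± 0.17, adjusted p = 0.06) stayed under the minimum of 1. It was the only member of the 38 whose neuronal arrays all exceeded the glial ones.

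Of the 8 mitotic cyclins, kinases and regulators, all were lower in neurons. Cdk1, the kinase that starts mitosis, had the widest range of any member: 3.89, 4.12, 4.41 and 3.90 in neurons, 9.07, 9.63, 9.49 and 9.34 in astrocytes, 8.69, 8.55, 8.53 and 8.99 in oligodendrocytes and 9.12, 9.02, 8.82 and 9.08 in microglia. The highest neuronal array stood 4.12 below the lowest glial array, and the difference from astrocytes was -5.31 ± 0.15 (39.6-fold, limma adjusted p = 6.95e-13). Its partner Ccna2, cyclin A2, read 3.05 to 3.19 in neurons and 6.26 to 7.64 in glia, and Ccnb2, a B-type cyclin, 4.20 to 4.66 and 8.42 to 9.35. Neither overlapped between neurons and glia. Foxm1, a transcription factor for mitotic genes, had the narrowest range of this role, with 4.84, 4.74, 4.87 and 4.93 in neurons, 6.07, 6.89, 6.93 and 6.73 in astrocytes, 6.53, 6.51, 6.20 and 6.74 in oligodendrocytes and 6.89, 6.67, 6.29 and 6.32 in microglia. The glial cultures overlapped each other and neurons lay below, with a difference of -1.81 ± 0.18 from astrocytes (3.51-fold, limma adjusted p = 7.03e-07). Plk1, a kinase of mitotic entry and spindle building, kept a level of 6.26 to 6.38 in neurons against 7.12 to 8.57 in glia.

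The 6 checkpoint and anaphase genes were also all lower in neurons. Ube2c, the ubiquitin-conjugating enzyme of the anaphase-promoting complex, read 4.64, 4.65, 4.60 and 4.61 in neurons, 8.19, 8.98, 8.83 and 9.21 in astrocytes, 8.55, 8.56, 8.72 and 9.05 in oligodendrocytes and 8.89, 8.90, 8.65 and 9.20 in microglia. The neuronal arrays lay closer together than those of any glial culture and below all of them, and neurons were 19.5-fold below microglia (-4.28 ± 0.18, limma adjusted p = 4.76e-11). Bub1b, the checkpoint protein BubR1, read 3.66, 3.53, 3.85 and 3.72 in neurons, 5.38, 5.94, 5.76 and 5.69 in astrocytes, 5.91, 5.96, 5.42 and 5.92 in oligodendrocytes and 6.14, 6.005, 5.39 and 6.03 in microglia. Its glial groups overlapped and its difference between neurons and microglia, -2.20 ± 0.17 (4.60-fold, limma adjusted p = 2.75e-08), was the smallest of the role.

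In the 12 measured genes of spindle, chromosomes and cytokinesis all were lower in neurons. Nusap1, a spindle microtubule binder, read 4.19, 4.37, 3.98 and 4.43 in neurons, 8.38, 9.26, 8.97 and 9.27 in astrocytes, 8.39, 8.42, 8.24 and 8.59 in oligodendrocytes and 8.75, 8.57, 8.31 and 8.53 in microglia. Neurons were 26.5-fold below astrocytes (-4.73 ± 0.17, limma adjusted p = 1.21e-11). Mki67, which encodes the proliferation antigen Ki-67 that coats mitotic chromosomes, read 3.82, 3.92, 4.04 and 4.01 in neurons, 6.71, 7.94, 7.83 and 7.84 in astrocytes, 7.91, 7.997, 7.83 and 8.40 in oligodendrocytes and 8.75, 8.53, 8.04 and 9.21 in microglia. Astrocyte 1 was the lowest glial array for this gene, and the neuronal mean was 25.7-fold below the microglial mean (-4.69 ± 0.26, limma adjusted p = 7.85e-10). Birc5, or survivin, a subunit of the chromosomal passenger complex, had the narrowest range here, with 4.33, 4.41, 4.08 and 3.88 in neurons, 5.44, 6.13, 6.08 and 5.84 in astrocytes, 6.56, 6.41, 6.59 and 6.81 in oligodendrocytes and 6.84, 6.49, 6.42 and 6.48 in microglia. Astrocytes lay between neurons and the other glia without overlap, and the difference between neurons and oligodendrocytes was -2.42 ± 0.16 (5.33-fold, limma adjusted p = 8.12e-09). Of the 12 genes with several probe sets, 7 (Cdc20, Ccne2, Foxm1, Kif2c, Kif23, Tk1 and Ttk) had a dimmest probe set that was not called between neurons and astrocytes, with differences from -0.86 (Kif2c) to -0.03 (Tk1). A dimmer probe set did not always differ less: a second one of Tk1 gave -1.73 and that of Ccnb1 -3.62, against -1.10 and -2.41 for the probe sets used.

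The median fall in neurons was larger for mitosis genes than for replication genes. The median difference of the 26 mitosis genes was -3.17 from astrocytes, -3.04 from oligodendrocytes and -3.29 from microglia, and that of the 12 replication genes -1.78, -1.97 and -2.0. On each array the level of a class was taken as the median over its genes after subtracting each gene's mean over the 16 culture arrays. On the neuronal arrays the replication level was -1.50, -1.63, -1.29 and -1.42 and the mitosis level -2.39, -2.28, -2.48 and -2.44. The replication level therefore exceeded the mitosis level on all 4 neuronal arrays, by 0.94 ± 0.23 (SD, n = 4). On all 12 glial arrays it was the lower of the pair, with differences of -0.45 ± 0.14 in astrocytes, -0.27 ± 0.19 in oligodendrocytes and -0.23 ± 0.17 in microglia. Since each gene is centred over the same arrays, the signs in neurons and glia are tied to each other, and no test was made of this contrast. The replication class includes Tyms, which was dim in all cultures, and Ccne1, which was not lower in neurons. Most mitosis genes, but not most replication genes, had a neuronal mean below the median of every array. The part of these features in the contrast was not tested. With the dimmest probe set of each gene in place of the brightest, the neuronal difference was 0.60.

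**Figure D2:**
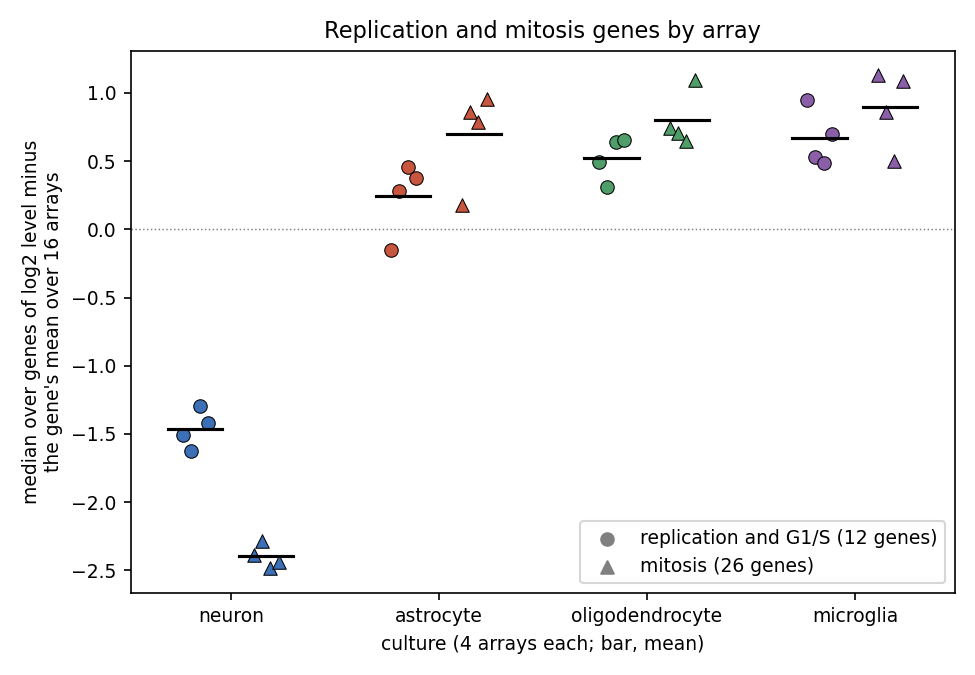
Median level of the 12 replication and G1/S genes (circles) and the 26 mitosis genes (triangles) on each of the 16 culture arrays, as log2 level minus each gene's mean over those arrays, with bars for culture means. In neurons the circles lie above the triangles on every array, and astrocyte 1 and microglia 3 are the lowest arrays of their cultures for the mitosis genes.

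The glial cultures differed much less from each other than from neurons in these genes. Astrocytes and oligodendrocytes differed in 3 of 38 genes, where 15.9% of all probe sets were called: 2 were higher in astrocytes (8.04% of all) and 1 lower (7.85%). Astrocytes and microglia differed in 6 genes, 2 higher in astrocytes and 4 lower (16.2% of all called, 9.13% higher and 7.05% lower). The 6 of 38 genes lie near the share of all probe sets called in that comparison. The median difference of the 38 was -0.13 between astrocytes and oligodendrocytes and -0.27 between astrocytes and microglia. Oligodendrocytes and microglia differed in 0 of 38 genes by limma at these thresholds (10.6% of all called, 6.27% higher and 4.29% lower), with 5 genes at an unadjusted p under 0.05. Their differences lay between -0.80 (Mcm2) and 0.68 (Ccne2), and the 95% interval lay within 1 unit either way for 34 genes. With no minimum difference, 14, 15 and 3 of 38 genes passed in these comparisons, where 34.3%, 38.4% and 26.9% of all probe sets did, so the counts for astrocytes lie near those shares. The 3 of the last were Mcm2 (-0.80 ± 0.18, limma adjusted p = 0.00314), Ttk (-0.79, adjusted p = 0.0195) and Ccne2 (0.68, adjusted p = 0.0388). These are also the cultures that held each other's markers, microglial at 9.05 in oligodendrocyte cultures and oligodendrocyte at 8.06 in microglial cultures, and their part in these values was not tested.

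Aurkb and Kif23, which act together at the midzone of the dividing cell, were the genes higher in astrocytes than in both other glia. Aurkb, the kinase of the chromosomal passenger complex, read 9.68, 9.11, 8.90 and 7.58 in astrocytes, 7.15, 6.67, 7.13 and 7.27 in oligodendrocytes, 7.28, 7.17, 7.20 and 7.62 in microglia and 4.81, 4.72, 5.71 and 5.21 in neurons. Only astrocyte 4 reached the range of the other glia. The difference was 1.76 ± 0.34 from oligodendrocytes (3.39-fold, limma adjusted p = 0.00073) and 1.498 ± 0.34 from microglia (adjusted p = 0.00247). Its partner Birc5 in the same complex was lower in astrocytes, with differences of -0.72 ± 0.16 and -0.68 ± 0.16 (limma adjusted p = 0.00233 and 0.00316), below the minimum of 1. Kif23, a kinesin of the central spindle, read 7.56, 8.04, 7.97 and 8.09 in astrocytes, 6.12, 6.24, 6.38 and 7.15 in oligodendrocytes, 6.87, 6.57, 6.03 and 7.09 in microglia and 4.65, 4.75, 3.68 and 4.49 in neurons. No astrocyte array overlapped another culture, and the differences were 1.44 ± 0.28 (2.72-fold, limma adjusted p = 0.000693) and 1.27 ± 0.28 (adjusted p = 0.00177). A dimmer probe set of Kif23 gave 0.51 and 0.59, which were not called.

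Ttk, Aurka, Mcm6 and Mki67 were the 4 genes lower in astrocytes than in microglia. Ttk, the checkpoint kinase Mps1, read 5.91, 6.74, 6.64 and 6.97 in astrocytes, 7.42, 7.20, 7.14 and 7.49 in oligodendrocytes and 8.01, 8.45, 8.21 and 7.75 in microglia, in separate ranges. It was 2.91-fold lower in astrocytes than in microglia (-1.54 ± 0.23, limma adjusted p = 7.8e-05), while its second, dim probe set differed by -0.01. Aurka, the Aurora kinase of the spindle poles, read 6.40, 6.78, 6.54 and 7.57 in astrocytes, 7.32, 7.70, 7.88 and 7.95 in oligodendrocytes and 7.92, 8.06, 8.26 and 8.24 in microglia. Astrocyte 4 was the highest astrocyte array, still below all microglia, and the difference was -1.30 ± 0.23 (limma adjusted p = 0.000299). The Aurora kinases thus differed between astrocytes and microglia in opposite directions. The helicase subunit Mcm6, at 7.62, 8.21, 8.36 and 8.12 in astrocytes, 8.82, 8.54, 9.09 and 8.83 in oligodendrocytes and 9.46, 9.20, 8.74 and 9.20 in microglia, was lower, with a difference of -1.07 ± 0.18 (adjusted p = 0.000254). Without astrocyte 1 it was -0.9173 and without microglia 1 -0.9665, under the minimum. Mki67 was lower, at -1.05 ± 0.26 (adjusted p = 0.00494), with -0.7628 without astrocyte 1 and -0.8605 without microglia 4, both under the minimum.

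Ccne2 was the gene lower in astrocytes than in oligodendrocytes (-1.03 ± 0.23, limma adjusted p = 0.00235). Its difference was -0.9485, -0.9395 and -0.8905 without astrocyte 1, astrocyte 2 or oligodendrocyte 1, and so lost the minimum of 1. Ccne1 was lower in astrocytes than in oligodendrocytes and microglia, with differences of -0.86 ± 0.17 and -0.79 ± 0.17 (limma adjusted p = 0.00081 and 0.00145), and without astrocyte 4 both differences passed the minimum, at -1.0706 and -1.0043. Without astrocyte 4 Aurka too was called against oligodendrocytes (-1.1427), and the count in that comparison was 5. Astrocyte 4 was the array with the high fibroblast and meningeal markers, and their part in these values was not tested. In the order of glial means, microglia were highest for 21 of 38 genes, astrocytes for 11 and oligodendrocytes for 6. Among replication genes astrocytes were lowest for 8 of 12. Among the 26 mitosis genes astrocytes were lowest for 13 and highest for 9, and oligodendrocytes were lowest for 12.

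**Figure D3:**
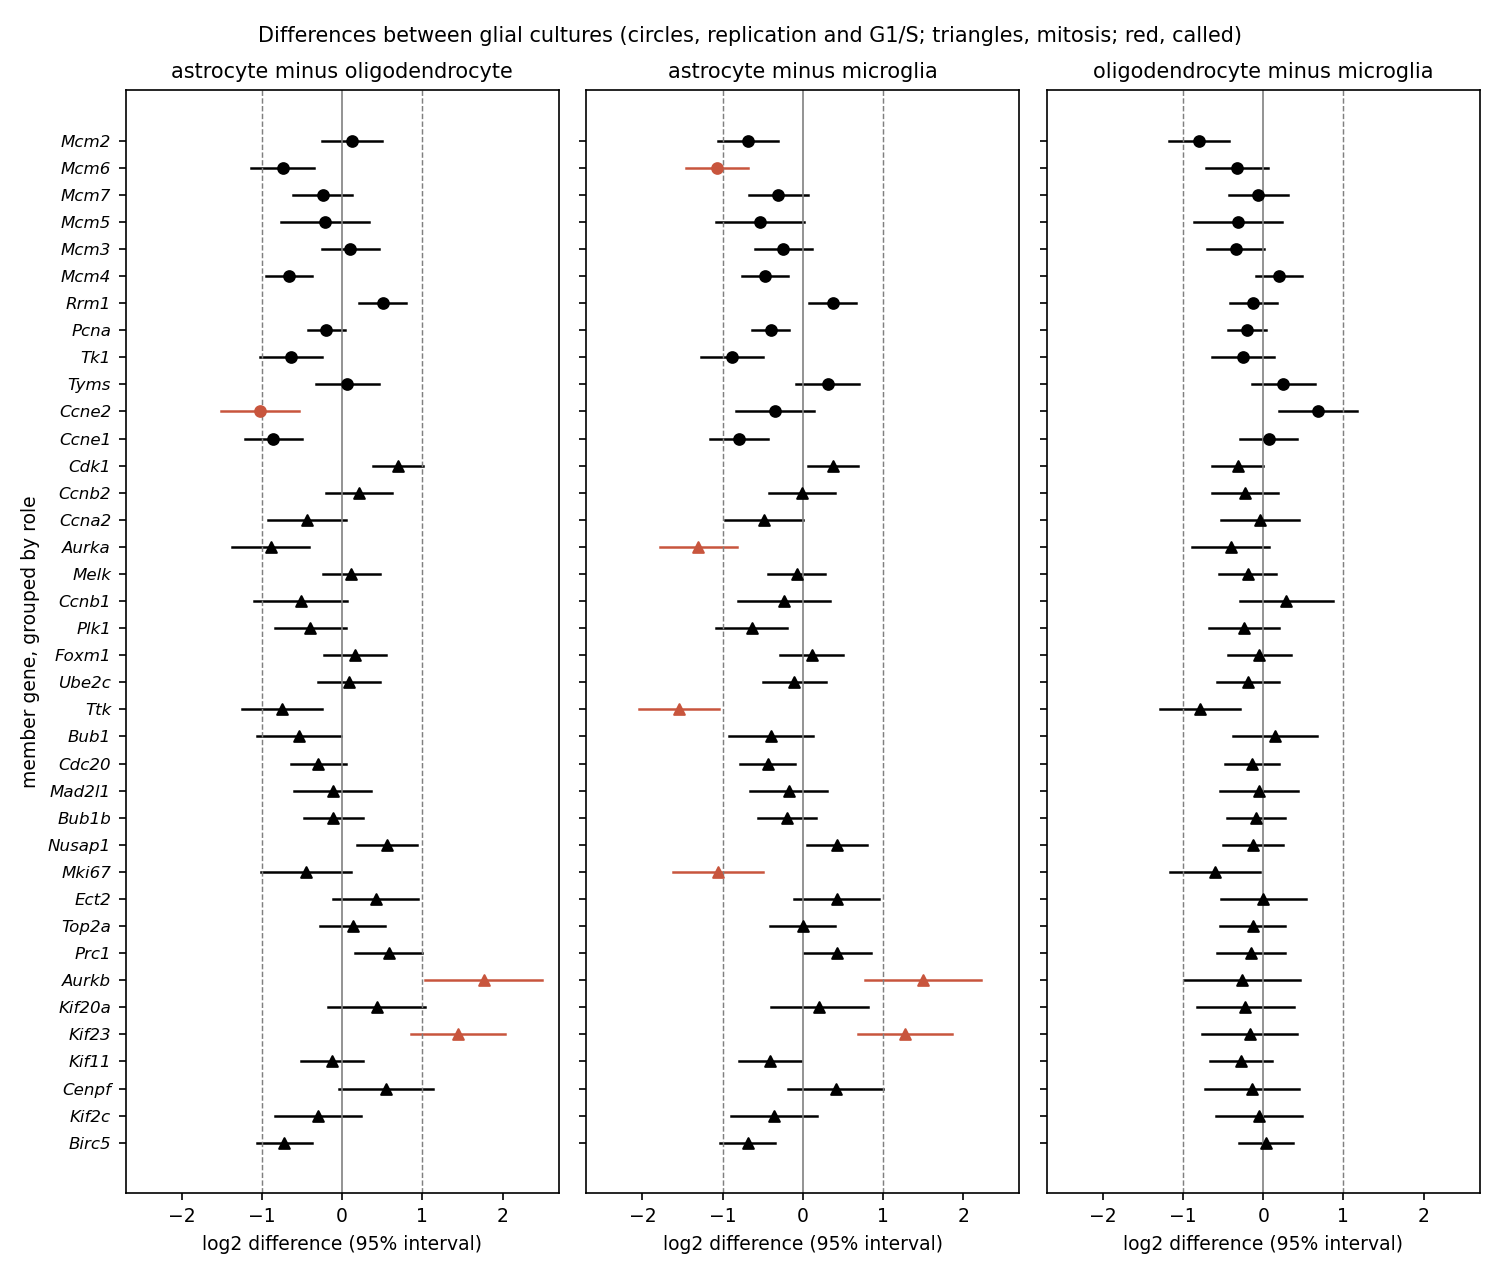
Log2 difference with its 95% interval for each of the 38 genes (rows, grouped by role) between astrocytes and oligodendrocytes (left), astrocytes and microglia (middle) and oligodendrocytes and microglia (right), with circles for replication and G1/S genes, triangles for mitosis genes and red for called genes. Dashed lines mark differences of 1, and 3, 6 and 0 genes are red from left to right.

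Within a glial culture many of the genes shared their lowest or highest array. For how many of all probe sets an array was lowest or highest was not counted. Astrocyte 1 was the lowest of the 4 astrocyte arrays for 33 of 38 genes, 25 of 26 mitosis genes among them, and microglia 3 the lowest microglial array for 32. Oligodendrocyte 4 was the highest of its culture for 28 genes, including 24 of 26 mitosis genes but 4 of 12 replication genes. Oligodendrocyte 3 was the highest for 6 replication genes and the lowest for 13 mitosis genes, so the classes ranked the oligodendrocyte arrays differently. In neurons no array was lowest for more than 14 genes. Aurkb went against its culture: its highest astrocyte array was astrocyte 1 and its lowest astrocyte 4, where Kif20a, a kinesin of cytokinesis, read 7.19, 7.91, 7.58 and 8.95. From astrocyte 1 to astrocyte 4, 35 of 38 genes were higher, with a median of 0.72, while Aurkb changed by -2.10, the lowest value of the set. The share of all probe sets higher in astrocyte 4 than in astrocyte 1 was not counted. These are single arrays, and no test was made of them.

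The mixtures held RNA of the same cultures, with a neuronal fraction set by the authors. Of the 38 genes, 36 fell step by step from NA1 to NA2 to NA3 in both replicates, Ccne1 rose step by step in both, and Tyms did neither. How many of all probe sets fell or rose in this way was not counted. The slope on the neuronal fraction over the 6 arrays was called at a limma adjusted p under 0.05 as lower for 22 genes and higher for 0, where 14.3% of all probe sets were called, 5.01% lower and 9.32% higher. The replicates share their parent RNA, and with the replicate as a block 36 genes were lower and 1 higher (11.7% and 12.5% of all probe sets). The median slope was -2.35 per unit of neuronal fraction, and 0.03 over all probe sets. The mixtures were made from 4 of the culture RNAs for these arrays and are not new samples of the cell types. A gene lower in the neuronal parents should fall as their fraction rises, so these falls are no separate support.

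Cdk1 read 8.499 and 8.80 in NA1, 7.80 and 8.16 in NA2 and 6.68 and 7.14 in NA3, replicates 1 and 2 in turn. The steps exceeded the gap between replicates, and the slope was -3.47 ± 0.45 (SE, limma adjusted p = 0.0056). Ect2, which acts in cytokinesis, had the steepest slope, -3.91 ± 0.60 (limma adjusted p = 0.009), with 7.42 and 7.79, then 6.501 and 7.01, then 5.26 and 6.04. Rrm1 read 8.55 and 8.61, then 8.05 and 8.002, then 7.41 and 7.43, and its slope was -2.32 ± 0.18 (adjusted p = 0.004). Ccne1 read 6.26 and 6.83, then 6.88 and 7.09, then 7.0 and 7.30, and its slope of 1.21 ± 0.44 was not called without the block (limma adjusted p = 0.13) and was called with it (adjusted p = 0.0178). Replicate 2 of Ccne1, made with astrocyte 4, lay above replicate 1, made with astrocyte 1, in NA1, NA2 and NA3, and the astrocyte parents had the same order (6.88 and 5.98).

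Aurkb carried the opposite order of the astrocyte parents into every mixture. It read 8.81 and 7.06 in NA1, 8.28 and 6.42 in NA2 and 7.45 and 5.62 in NA3, with replicate 1 higher throughout. Its slope of -2.81 ± 1.77 was not called without the block (limma adjusted p = 0.40) and was called with it (adjusted p = 0.000981). In NA1, NA2 and NA3 31, 32 and 32 of 38 genes were higher in replicate 2, with medians of 0.46, 0.46 and 0.33, and Aurkb was the lowest of the set in each, at -1.75, -1.86 and -1.83. It was also the lowest in NAO (-1.14) and NAOM (-1.24). The share of all probe sets higher in replicate 2 was not counted, so a general difference between the replicates was not tested.

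**Figure D4:**
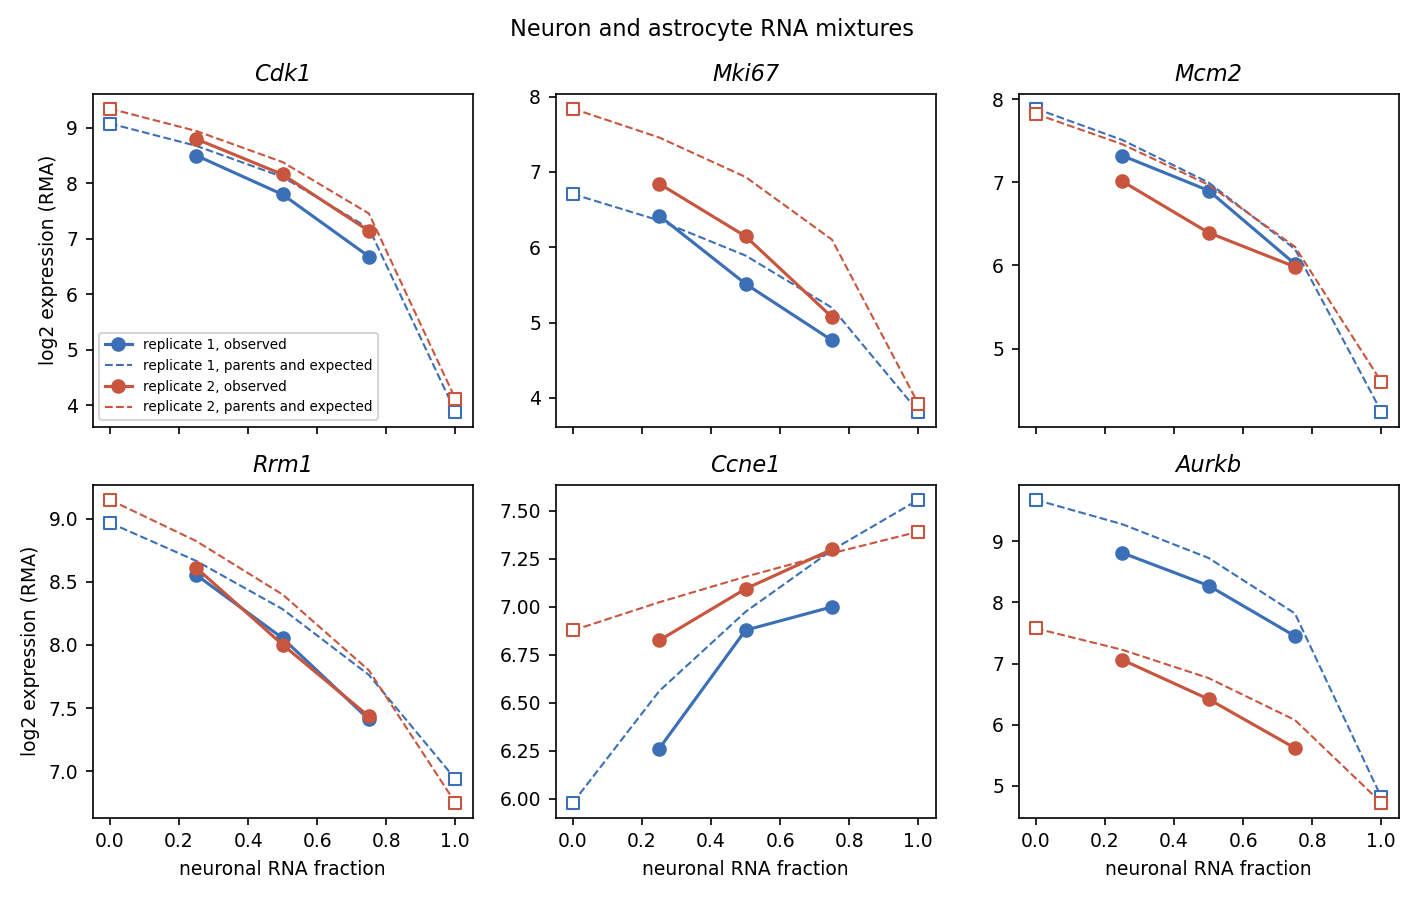
Log2 expression of 6 genes against the neuronal RNA fraction in NA1, NA2 and NA3 (filled circles and solid lines), with the parent cultures at fractions 0 and 1 (open squares) and the level expected from the parents (dashed lines), for replicate 1 in blue and replicate 2 in red. Ccne1 rises while the other 5 fall, and Aurkb alone has replicate 1 far above replicate 2.

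Levels in the mixtures lay below those expected from the parents. The expected level was log2 of the fraction-weighted sum of the linear levels of the parent arrays. The median of observed minus expected over the 38 genes lay between -0.14 (NA1, replicate 1) and -0.43 (NAO, replicate 1), and 30 to 37 of 38 genes were below expectation on each of the 10 arrays. Over all probe sets the median also lay below 0, between -0.08 and -0.15. Bub1 showed the largest mean shortfall, -0.58 over the 10 mixture arrays, and Pcna, at -0.04, and Tyms, at -0.02, the smallest. With a weighted mean of log2 levels as expectation, the pooled median was 0.16 in place of -0.37, so the sign rests on the form of the expectation. No test was made of these values.

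Other genes of the same pathways moved the same way in neurons. Against astrocytes, oligodendrocytes and microglia, 12.0%, 10.6% and 11.6% of all probe sets were called lower in neurons and 12.0%, 11.0% and 14.1% higher. Of 32 measured genes in a list of other replication genes, 20, 22 and 26 were lower in neurons than in astrocytes, oligodendrocytes and microglia and 0 higher, with medians of -1.26, -1.56 and -1.70. They included the licensing factor Cdt1 (-2.75 ± 0.28, -2.79 and -3.02), its inhibitor Gmnn (-3.05 ± 0.24 from microglia) and the uracil glycosylase Ung (-3.09 ± 0.13 from microglia). Of 36 other mitosis genes 30, 30 and 31 were lower and 1, 1 and 2 higher, with medians of -2.19, -2.34 and -2.45. Cks2, which binds Cdk1, differed by -5.48 ± 0.22, -5.41 and -5.47, and Racgap1, the partner of Kif23 at the central spindle, by -4.03 ± 0.19, -3.81 and -4.12. Zwint, a kinetochore protein also known in rat brain as a binder of the synaptic protein Snap25, was higher in neurons by 2.22 ± 0.14, 1.83 and 2.76 (limma adjusted p = 3.39e-09, 3.56e-08 and 2.43e-10). The phosphatase Cdc25b was higher than in microglia (1.03 ± 0.30, adjusted p = 0.00917).

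Between glia most of the 32 other replication genes were not called. In astrocytes 3 were lower than in oligodendrocytes (29 not called) and 4 lower than in microglia (28 not called), with 0 higher. In these comparisons 7.85% and 7.05% of all probe sets were called lower and 8.04% and 9.13% higher. Gins1, a subunit of the replicative helicase, differed by -1.15 ± 0.16 from oligodendrocytes and -1.63 ± 0.16 from microglia (limma adjusted p = 4.97e-05 and 1.2e-06). Rpa3, of the single-strand binding complex, differed by -1.19 and the primase subunit Prim2 by -1.03 from oligodendrocytes, and Ung by -1.24 and Gmnn by -1.18 from microglia. Of the other mitosis genes, Spc24, of the kinetochore, was higher in astrocytes than in oligodendrocytes (1.15 ± 0.24, limma adjusted p = 0.00148) and Cdc25b than in microglia (1.10 ± 0.30, adjusted p = 0.00826). In the slope on the neuronal fraction 11 other replication genes were lower and 0 higher, and 20 other mitosis genes were lower and 1, Zwint, higher (1.34 ± 0.27, adjusted p = 0.022). Of all probe sets, 5.01% were called lower in the slope and 9.32% higher.

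Of 17 measured regulators among the E2F factors, pocket proteins and MuvB subunits, 8, 6 and 10 were lower in neurons than in astrocytes, oligodendrocytes and microglia and 0 higher. Of all probe sets, 12.0%, 10.6% and 11.6% were called lower in these comparisons and 12.0%, 11.0% and 14.1% higher. The pocket protein Rbl1, or p107, which is itself an E2F target, had mean levels of 3.09 ± 0.07 (SD, n = 4) in neurons, 5.63 ± 0.41 in astrocytes, 6.44 ± 0.33 in oligodendrocytes and 7.83 ± 0.40 in microglia. The differences of neurons from these 3 were -2.54 ± 0.22, -3.34 and -4.74, and it was the regulator called between oligodendrocytes and microglia (-1.39 ± 0.22, limma adjusted p = 0.000276). Between oligodendrocytes and microglia 10.6% of all probe sets were called, 4.29% of all lower. E2f5, a repressor E2F, was lower in neurons than in astrocytes (-2.004 ± 0.18) and oligodendrocytes (-1.94), E2f2 than in microglia (-1.56 ± 0.22) and Lin9, of MuvB, than in oligodendrocytes (-1.68 ± 0.20). Between astrocytes and microglia 3 regulators were higher in astrocytes, Tfdp2 (1.27 ± 0.23), Rb1 (1.21 ± 0.16) and Lin52 (1.19 ± 0.17), and 2 were lower, Rbl1 (-2.19 ± 0.22) and E2f2 (-1.38 ± 0.22). Of all probe sets, 9.13% were called higher in astrocytes than in microglia and 7.05% lower.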

How the data were processed

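The deposited table held log2 expression values for 31099 probe sets on 26 arrays, made by the authors with RMA in the affy package, per the submitters' processing notes, which name no versions. Leaving out 57 control probe sets, 31042 entered the tests, and dim ones were kept. Gene names came from the platform annotation, with 20758 probe sets matched by gene ID to GRCr8. Limma 3.58.1 (R 4.3.3) fitted 1 mean per culture over 16 arrays with 6 contrasts, and the slope on the neuronal fraction over 6 mixture arrays, called with no minimum. Arrays give no read depth, and their number, 4 per culture, limits the precision. The p-values of the contrasts set a difference against the spread between replicate cultures. Those of the slope rest on the spread between mixtures that share parent RNA.

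Members, classes and lists were chosen with earlier results of these data known. All measured members could be named. Of the other lists, called genes were named, up to 3 each way per contrast by size of difference. Array values are given for the members with the widest and narrowest range of culture means in each role.

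Replicate numbers did not pair the cultures (residual r from -0.107 to 0.178, 5 of 24 pairs above 0.1). They paired the mixtures through the shared parents named in the labels (0.381 to 0.873, 20 of 20). On simulated data the neuron against astrocyte fit found 92% of changed probe sets at a log2 change of 1.5 and 100% at 3 (5 false calls), and the slope fit 49% at a slope of 2 and 94% at 5 (8 false calls). The simulated noise was independent between arrays, unlike that of mixtures with shared parents, so the slope figures do not describe the real mixtures. Alternatives were other normalizations, probe sets, minima, variance settings, array weights, blocks and left-out replicates. Rrm2 and Tpx2 were not analysed here. Python 3.11.15, pandas 2.3.3 and matplotlib 3.10.9 were also used.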

Additional observations from a re-analysis of the deposited data

Results flagged for a closer look

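In 14 of 152 sets of 4 replicate arrays, 1 array stood apart from the other 3 by Dixon's ratio at its 95% critical value, where chance gives about 1 in 20. Astrocyte 1 was low for Mki67 (6.71, others 7.83 to 7.94), Mcm5 (6.996, others 7.72 to 7.77) and Mad2l1, a spindle checkpoint protein (6.42, others 7.02 to 7.13). Neuron 3 was low for Ccnb1, cyclin B1 (4.75, others 5.91 to 6.07) and high for Mcm5 (5.98, others 4.93 to 5.11). Neuron 4 was low for Bub1 (3.48, others 3.80 to 3.85) and Plk1 (6.26, others 6.36 to 6.38). Neuron 2 was high for Ccna2 (3.19, others 3.05 to 3.07) and Tyms (4.75, others 4.60 to 4.62), by small steps at low levels. Microglia 3 was low for Top2a, topoisomerase II alpha (8.89, others 9.18 to 9.23), microglia 1 high for Birc5 (6.84, others 6.42 to 6.49), and microglia 4, the array described as a mixture in its labels, high for Tyms (5.12, others 4.52 to 4.56). Oligodendrocyte 4 was high for Ect2 (8.42, others 7.78 to 7.89) and oligodendrocyte 3 low for Bub1b (5.42, others 5.91 to 5.96). In the neuronal comparisons, none of these genes other than Tyms, which was never called, lost its call when any 1 array was left out.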

How the results depend on the processing

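The counts of 37, 36 and 36 genes called between neurons and the 3 glial cultures ranged from 36 to 37, 36 to 36 and 36 to 36 when 1 array was left out, and stayed within 1.5 times under every other alternative run. They were 27, 29 and 30 at a minimum of 2 and 30, 28 and 28 with the dimmest probe set of each gene. Between astrocytes and oligodendrocytes the count of 3 became 14 with no minimum difference, 0 at a minimum of 2, 5 with array weights, 1 with the mean over probe sets and 1 with the dimmest probe set, and 2 to 5 without 1 array (5 without astrocyte 4). Between astrocytes and microglia the 6 became 15 and 0 at those minima and 4 to 7 without 1 array (4 without astrocyte 1). Between oligodendrocytes and microglia the 0 became 3 with no minimum and stayed 0 to 0 without 1 array. The 22 slopes became 37 with the replicate block, which changed no culture count, and 10 to 20 without 1 array: 11 without NA1 replicate 2, 14 without NA2 replicate 1, 11 without NA3 replicate 1 and 10 without NA3 replicate 2. The pooled median of observed minus expected mixture level reversed from -0.3734 to 0.1567 under log2 mixing. The neuronal excess of the replication over the mitosis level was 0.94, 0.5991 with the dimmest probe sets, and 0.8524 to 1.0307 without 1 array. In the other cultures it was -0.4945 to -0.4141 (astrocytes), -0.3599 to -0.2175 (oligodendrocytes) and -0.3004 to -0.1749 (microglia) without 1 array. The alternatives for these class levels were added after the data were seen. The cause of these shifts was not tested, apart from the minima and the left-out arrays, which change the count by construction. For single genes, 4831 repeats kept their side of the threshold, 52 gained and 133 lost a call, and 0 reversed. Dim probe sets limit what can be seen of Tyms and of the neuronal levels.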
